A study of Mus musculus with 9 samples.

Results

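The 41 genes described here encode proteins that make ribosomes in the nucleolus, and they were taken as a list of nucleolar and ribosome assembly factors from the 35288 genes of the deposited count matrix. This list, and the gene lists set beside it below, were chosen with earlier results of these data known. All 41 were matched to a single Ensembl mouse gene and all 41 passed the filter on low counts, which kept 13697 genes. They were measured by bulk RNA-seq in T15, a Smarcb1-negative murine peripheral T-cell lymphoma (PTCL) cell line, in 3 control, 3 SAHA-treated and 3 Smarcb1-RE libraries. SAHA, an inhibitor of histone deacetylases, was given repeatedly at 1 µM over 72 h. The paper reports strong apoptosis of T15 cells at this concentration, with the large majority of cells dead. Smarcb1-RE cells carried a lentiviral pInd20 plasmid with the Smarcb1 cDNA, were selected with G418 and received doxycycline (Dox) at 0.5 µg/µl for 72 h. For re-expression the paper reports reduced cell growth, without an effect on viability or the cell cycle. The part of cell death and growth in the results was not tested. The labels describe a vehicle for the drug experiment and a Smarcb1-negative plasmid for the re-expression experiment, without saying which of these the control libraries received, and the study's methods do not say which stable clone was sequenced. The paper's text calls the control cells untreated, while a caption on the re-expression experiment describes T15 cells carrying an empty vector and given Dox. Smarcb1, transduction, selection, the clone and Dox therefore cannot be told apart when Smarcb1-RE is set against control. If the control cells carried a plasmid and received Dox, then plasmid, selection and Dox could differ in SAHA against control too.

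Ribosome production starts in the nucleolus, where RNA polymerase I (Pol I) copies the ribosomal DNA into a long precursor rRNA. Small nucleolar ribonucleoproteins (snoRNPs) modify that precursor, the small subunit processome folds and cuts it, and a separate series of factors assembles the large subunit before both particles are exported to the cytoplasm. Output of this pathway is coupled to cell growth, and the transcription factor MYC, which binds the E-box letters CACGTG, is known to activate many of its genes.

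Smarcb1 counts were 2, 5 and 8 in control and 7, 13 and 3 under SAHA, compared with 151, 147 and 142 after re-expression, which is the direction the labels give. Library totals ranged from 20900424 to 24941408 counts. Of the 10 T-cell markers examined, Cd3e, Cd3d, Cd3g, Cd247, Lck, Zap70 and Cd8a were abundant, whereas Cd4 had no count in any library and Cd2 and Thy1 stayed at or below 0.265 CPM (counts scaled to the size of each library). The summed level of those 10 markers lay between 2707 and 2821 CPM in control, 2952 and 2979 under SAHA and 2789 and 2837 in Smarcb1-RE. Single markers moved in both directions within this sum. In control, SAHA and Smarcb1-RE, means were 690, 1012 and 793 CPM for Cd8a and 422, 555 and 332 for Cd3g. They were 509, 334 and 419 CPM for Cd247 and 334, 320 and 541 for Lck. B-cell markers summed to at most 1.14 CPM in control, 1.86 in SAHA and 7.97 in Smarcb1-RE, with Cd79a and Cd79b at or below 0.169 CPM, and myeloid markers to at most 2.55, 7.41 and 1.92 CPM. Of the stromal and endothelial markers, Pecam1 was expressed in every library (106 to 154 CPM) and made up nearly all of the list's sum. That sum lay between 146 and 155 CPM in control, 108 and 122 under SAHA and 129 and 131 in Smarcb1-RE, lower than control in both treatments as the members were. Col1a2 and Cdh5 stayed at or below 0.170 and 0.041 CPM. Col1a1, also low, went the other way, with means of 0.085 CPM in control, 0.899 under SAHA and 0.477 in Smarcb1-RE. The part of these markers in the results was not tested. Control replicate 1 stood apart, with a chi-square per gene of 13.4 and 15.0 against the other control libraries, compared with 2.12 to 4.69 for every other pair within a group.

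The pathway genes fell under both treatments, and further under Smarcb1 re-expression. In SAHA, 33 of the 41 members were lower than in control, 1 (Utp4) was higher and 7 did not pass the threshold (edgeR's quasi-likelihood test, adjusted p under 0.05), where 34.3% of all tested genes were called lower and 32.6% higher. In Smarcb1-RE, all 41 members were lower than in control, against 38.6% of all tested genes called lower and 39.2% higher. The median log2 fold change of the members was -0.44 in SAHA and -0.84 in Smarcb1-RE, while the median over all tested genes was 0.00 and 0.01. Both comparisons used the same 3 control libraries, so they are not independent of each other. Each member's level was a share of the mRNA in its library, and in bulk RNA fewer cells of a type and less RNA per cell cannot be told apart.

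**Figure D1:**
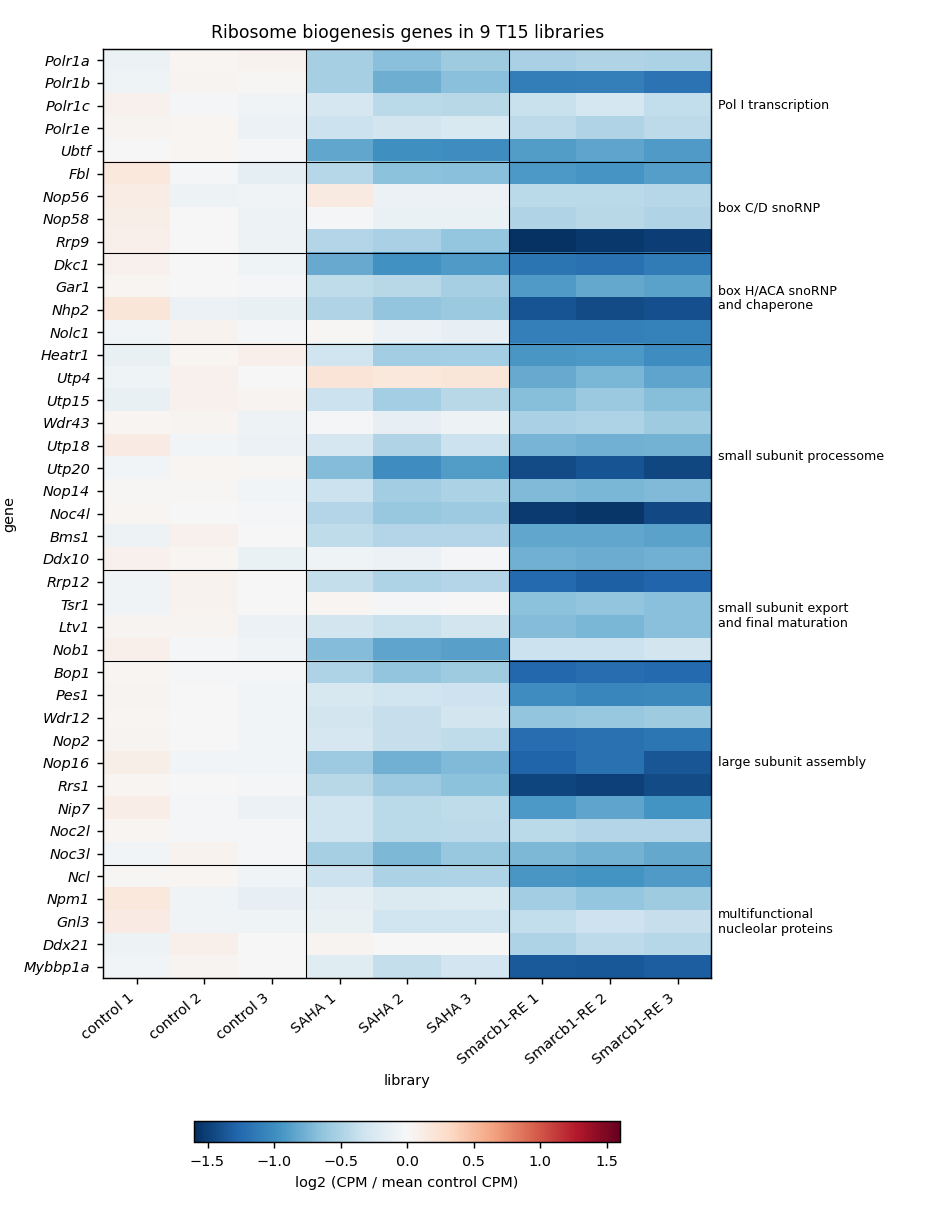
Each cell gives the log2 ratio of a member's TMM-normalized CPM in 1 library (columns) to its mean over the 3 control libraries, with the 41 genes (rows) ordered by role and blue for lower values. The Smarcb1-RE columns are blue for every gene, and the SAHA columns are paler for most genes but not for Nob1, Polr1a, Polr1c and Ubtf, with Utp4 above the control mean in all 3 SAHA libraries.

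The changes were moderate for single genes. In SAHA, 14 members were called with a log2 fold change of -0.5 or lower, against 13.0% of all tested genes, and no member reached -1, which 2.35% of all genes did (the same edgeR test). In Smarcb1-RE, 33 members were at -0.5 or lower (21.7% of all genes) and 14 at -1 or lower (6.78%), with a range over the 41 from -1.54 for Rrp9 to -0.33 for Nob1. The libraries did not overlap for any of the 41 members, every Smarcb1-RE library lying below every control library, as for 39.1% of all genes. For SAHA against control this held for 33 members, as for 34.9% of all genes. A permutation test of a single gene in 3 against 3 libraries cannot give a two-sided exact p below 0.1.

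Summed over the 41 members, TMM-normalized expression was 12949 ± 407 CPM (SD, n = 3) in control, 10196 ± 487 in SAHA and 7441 ± 18.2 in Smarcb1-RE. These are 78.7% and 57.5% of the control mean, and the 3 groups did not overlap. The sums were not carried by the abundant Ncl and Npm1 alone, since without them the values were 78.8% and 57.1%. On the plain share of all counts, without TMM factors, the members took 1.25% of the control libraries on average, 0.982% of the SAHA libraries and 0.800% of the Smarcb1-RE libraries, that is 78.8% and 64.2% of control.

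**Figure D2:**
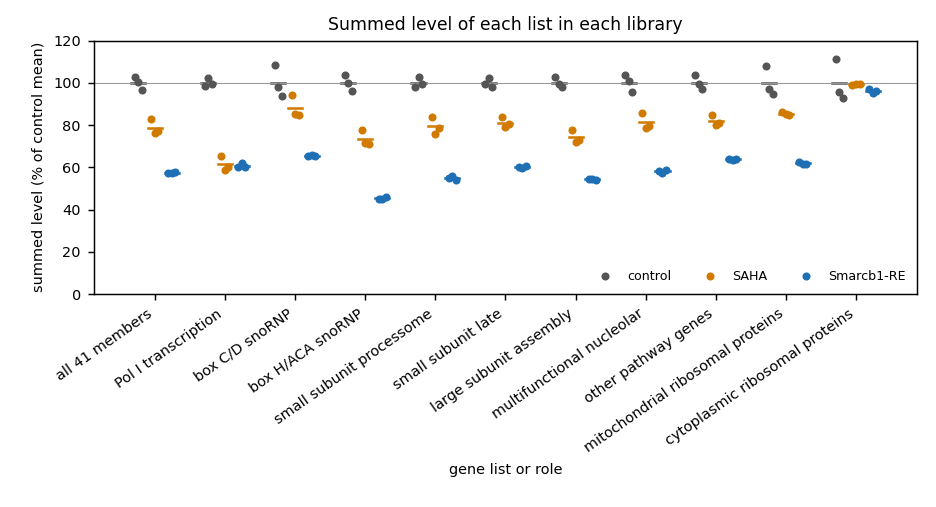
Points are the summed TMM-normalized CPM of a gene list or role in each library as a percentage of its control mean, and short bars are group means (n = 3). Group means of the members and of each role lie below control in both treatments, with the Pol I members at a similar level in both. Single SAHA and control libraries overlap for the box C/D snoRNP members. The means of the cytoplasmic ribosomal protein genes lie near 100%.

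Promoter letters are given before the single genes, because the members lie on 17 chromosomes and moved in the same direction in Smarcb1-RE. RefSeq promoter windows (GRCm38.p6), covering 250 bases before and 50 after a transcription start, were present for 36 of the 41 members. The E-box CACGTG, which reads the same on both strands, occurred in a window of 9 members, or 25% of those with a window, compared with 11.5% of 9785 tested genes and 8.09% of all 27025 genes of the table. In 7 of these 9 the E-box began at or after the start site (77.8%), compared with 11 of 25 (44%) in the further pathway genes and 13.9% of the E-boxes in tested genes. The 9 sites are given with the E-box in capitals, in the direction of transcription, first the 7 that begin at or after the start and then the 2 before it.
Pes1 chr11:3963965-3963994 (plus strand): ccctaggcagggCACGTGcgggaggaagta
Utp4 chr8:106893643-106893672 (plus strand): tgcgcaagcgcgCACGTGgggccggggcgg
Wdr43 chr17:71616220-71616249 (plus strand): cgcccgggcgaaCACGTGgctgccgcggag
Tsr1 chr11:74898092-74898121 (plus strand): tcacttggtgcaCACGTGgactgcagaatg
Ltv1 chr10:13193092-13193121 (minus strand): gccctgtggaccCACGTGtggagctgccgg
Utp20 chr10:88826765-88826789 (minus strand): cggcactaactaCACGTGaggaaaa
Mybbp1a chr11:72441355-72441376 (plus strand): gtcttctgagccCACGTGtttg
Utp18 chr11:93885769-93885798 (minus strand): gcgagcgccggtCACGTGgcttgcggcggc
Nop2 chr6:125131811-125131840 (plus strand): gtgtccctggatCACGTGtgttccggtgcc

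Counting the first transcribed base as 0, the E-box began at position 2 in Pes1, 15 in Utp4, 17 in Wdr43, 24 in Tsr1, 28 in Ltv1, 37 in Utp20 and 40 in Mybbp1a, and 20 and 60 bases before the start in Utp18 and Nop2. Among the further pathway genes, 20 of 111 (18.0%) held an E-box. The median log2 fold change in Smarcb1-RE was -0.79 for the 9 members with an E-box in a window and -0.78 for the 27 without one. The letters CCGGAAG, the core of sites bound by ETS factors, were found on either strand in 16 of the 36 members (44.4%), in 44 of 111 further pathway genes (39.6%) and in 20.6% of tested genes. The GC box GGGCGG was found in 77.8% against 67.3%, CCAAT in 33.3% against 43.9%, the NRF1 letters GCGCATG in 8.33% against 8.04% and the YY1 letters AAGATGG in 2.78% against 8.52%. These are matches of letters, with no binding measured.

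Upstream sequences are given for 3 members as examples. Utp4 is the member that rose in SAHA, and Rrp9 and Nhp2 were among the members with the deepest falls in Smarcb1-RE. Each run is the 250 bases before the start, with CCGGAAG and CCAAT on either strand in capitals.
Utp4 chr8:106893390-106893639 (plus strand): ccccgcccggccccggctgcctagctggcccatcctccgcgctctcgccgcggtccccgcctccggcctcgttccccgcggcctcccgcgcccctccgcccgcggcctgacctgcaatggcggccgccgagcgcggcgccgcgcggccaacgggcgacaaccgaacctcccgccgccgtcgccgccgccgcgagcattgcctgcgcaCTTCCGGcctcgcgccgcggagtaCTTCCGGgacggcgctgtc
Rrp9 chr9:106477059-106477308 (plus strand): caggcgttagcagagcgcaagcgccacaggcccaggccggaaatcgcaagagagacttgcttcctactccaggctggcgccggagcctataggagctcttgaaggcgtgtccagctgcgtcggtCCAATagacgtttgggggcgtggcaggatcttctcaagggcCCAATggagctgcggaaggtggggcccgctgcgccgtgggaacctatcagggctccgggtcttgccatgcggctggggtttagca
Nhp2 chr11:51619523-51619772 (plus strand): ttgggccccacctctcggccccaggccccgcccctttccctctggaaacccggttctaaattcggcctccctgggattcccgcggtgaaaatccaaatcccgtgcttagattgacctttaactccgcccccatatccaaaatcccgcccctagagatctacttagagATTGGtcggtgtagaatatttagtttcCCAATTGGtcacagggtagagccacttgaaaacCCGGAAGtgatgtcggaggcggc

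The Utp4 run holds 2 ETS matches and no CCAAT, and the Rrp9 run holds 2 CCAAT matches and no ETS match. The Nhp2 run holds 3 CCAAT matches, 2 of which overlap, and 1 ETS match. Noc4l (-1.51) and Utp20 (-1.43) fell further than Nhp2 (-1.40) in Smarcb1-RE. The same run of Noc4l holds neither match, and that of Utp20 holds 1 CCAAT match and no ETS match. A link between these letters and the responses was not tested. The GC content of the member windows had a median of 60.7%, close to the 60.3% of tested genes.

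The 5 members of Pol I transcription summed to similar levels in both treatments with TMM factors, 61.4% of control in SAHA and 60.9% in Smarcb1-RE. As a plain share of all counts they took 0.0564% to 0.0625% of the SAHA libraries and 0.0641% to 0.0669% of the Smarcb1-RE libraries. The 10 further Pol I genes examined differed between the treatments, with median log2 fold changes of -0.20 in SAHA and -0.55 in Smarcb1-RE. All 5 members, Polr1a, Polr1b, Polr1c, Polr1e and Ubtf, were lower than in control in SAHA and in Smarcb1-RE, with median log2 fold changes of -0.59 and -0.50. Ubtf, which binds the ribosomal DNA promoter and keeps the genes in an open state, was measured at 466, 482 and 462 CPM in control, 263, 237 and 237 under SAHA and 252, 262 and 251 in Smarcb1-RE. Both treatments lay far below control and overlapped each other. Its log2 fold change was -0.94 (SE 0.047, adjusted p = 6.99e-09, edgeR) in SAHA and -0.88 (SE 0.047, adjusted p = 2.77e-09) in Smarcb1-RE, and the difference between the treatments was 0.05 with a 95% interval from -0.05 to 0.16. Ubtf was the member with the largest fall in SAHA.

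Polr1c, a subunit shared by Pol I and Pol III and the Pol I member with the highest level per kilobase of exon (81.9 CPM per kb), had 132, 125 and 121 CPM in control, 105, 93.4 and 93.2 under SAHA and 98.4, 104 and 96.1 in Smarcb1-RE. It fell to 77.0% of control in SAHA and 78.7% in Smarcb1-RE, and both treatments overlapped. Polr1a, the largest catalytic subunit, fell by 0.59 and 0.50 on the log2 scale. Polr1b, the second catalytic subunit, differed between the treatments, at -0.66 in SAHA and -1.12 in Smarcb1-RE, and the difference of -0.47 (SE 0.060) had an adjusted p of 1.34e-05 (edgeR). Polr1e, an accessory subunit, fell by 0.29 and 0.44, and was also called lower in Smarcb1-RE than in SAHA (-0.15, SE 0.052, adjusted p = 0.0207). That call was lost without SAHA replicate 3 or without Smarcb1-RE replicate 2 (-0.13 in each case), and with upper-quartile factors (-0.05). With library totals in place of TMM factors, Polr1a, Polr1c and Ubtf were called higher in Smarcb1-RE than in SAHA, by 0.25, 0.19 and 0.21.

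Box C/D snoRNPs, which add methyl groups to the rRNA, contained a pair of members that were not called in SAHA. Nop58, a core scaffold protein and the group's most abundant member per kilobase (265 CPM per kb), had 544, 509 and 481 CPM in control, 500, 477 and 476 under SAHA and 365, 375 and 365 in Smarcb1-RE. The SAHA libraries overlapped control (log2 fold change -0.08, 95% interval from -0.18 to 0.02, adjusted p = 0.153, edgeR), and the Smarcb1-RE libraries lay below both (-0.47, SE 0.047, adjusted p = 9.59e-07). Its partner Nop56 had the same pattern, with -0.01 in SAHA (interval from -0.16 to 0.13) and -0.44 in Smarcb1-RE. Fbl, the methyltransferase of these particles, fell by 0.59 and 0.91 on the log2 scale.

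Rrp9, a protein specific to the U3 snoRNP that guides early cuts of the precursor, had the deepest fall of all members in Smarcb1-RE. It was measured at 96.6, 90.5 and 86.2 CPM in control, 65.6, 63.4 and 59.4 under SAHA and 30.4, 31.2 and 32.2 in Smarcb1-RE. The 3 groups were separate and in descending order. The log2 fold change was -0.54 (SE 0.052) in SAHA and -1.54 (SE 0.055, adjusted p = 1.05e-10, edgeR) in Smarcb1-RE, where 34.3% of the control level remained. Rrp9 shares exon sequence with Parp3 on the opposite strand, as 14 further members do with other genes, and whether counting used strand is not given in the sources used here.

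Box H/ACA snoRNP genes, whose products convert uridine to pseudouridine in rRNA, had the lowest summed level of any role in Smarcb1-RE, 45.4% of control, compared with 73.4% in SAHA. Dkc1 (dyskerin), the pseudouridine synthase, was measured at 304, 287 and 275 CPM in control, 166, 148 and 154 under SAHA and 129, 126 and 133 in Smarcb1-RE. The groups did not overlap, and SAHA lay closer to Smarcb1-RE than to control (-0.89, SE 0.051, adjusted p = 1.84e-08, edgeR), with -1.16 (SE 0.052) in Smarcb1-RE. Nhp2, an RNA-binding core protein, had 196, 160 and 158 CPM in control, 123, 110 and 113 under SAHA and 66.0, 63.8 and 64.9 in Smarcb1-RE. Control replicate 1 was 0.30 above the mean of the other control libraries on the log2 scale, and the fall was -0.57 in SAHA and -1.40 (SE 0.076, adjusted p = 3.47e-09) in Smarcb1-RE. Gar1, a further core protein, fell by 0.46 and 0.86, while the gene of the small core protein Nop10, which is outside the 41, rose by 0.39 in SAHA.

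Nolc1, a phosphoprotein that accompanies snoRNPs to the nucleolus, separated the treatments. It had 293, 316 and 299 CPM in control, 307, 284 and 277 under SAHA and 141, 141 and 143 in Smarcb1-RE. SAHA and control libraries overlapped (-0.07, 95% interval from -0.17 to 0.03), whereas Smarcb1-RE was at 46.9% of control (-1.09, SE 0.047, adjusted p = 4.32e-10, edgeR). The direct difference between Smarcb1-RE and SAHA was -1.03 (SE 0.047, adjusted p = 8.02e-10).

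The small subunit processome, the large early particle on the precursor rRNA, supplied 10 members, of which 7 fell and 1 rose in SAHA, and all 10 fell in Smarcb1-RE. Utp4, a subunit of the first complex to join the precursor, was the only member called in opposite directions. Its levels were 152, 166 and 157 CPM in control, 182, 177 and 181 under SAHA and 90.4, 95.3 and 88.1 in Smarcb1-RE. All SAHA libraries lay above and all Smarcb1-RE libraries below the control libraries. The rise in SAHA was small, 0.19 on the log2 scale (SE 0.044, adjusted p = 0.00227, edgeR), and the fall in Smarcb1-RE was -0.79 (SE 0.045, adjusted p = 5.43e-09).

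None of the 3 partners of Utp4 in the same complex on the list was called higher in SAHA. Heatr1 fell by 0.47 and 0.95 and Utp15 by 0.44 and 0.65 on the log2 scale, in SAHA and Smarcb1-RE respectively. Wdr43 was not called in SAHA (-0.08, 95% interval from -0.17 to 0.02, edgeR) and fell by 0.53 in Smarcb1-RE. Utp20, a long scaffold protein, had 184, 195 and 193 CPM in control, 117, 95.9 and 103 under SAHA and 70.5, 72.8 and 69.2 in Smarcb1-RE. It was among the members with the largest falls in both comparisons, at -0.85 (SE 0.061, adjusted p = 1.12e-07) and -1.43 (SE 0.063, adjusted p = 5.86e-10), with no overlap between any of the groups.

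Noc4l and Nop14, which form a complex with each other in the particle, changed by different amounts. Noc4l was measured at 101, 98.02 and 96.9 CPM in control, 71.0, 65.1 and 65.8 under SAHA and 34.0, 33.6 and 36.2 in Smarcb1-RE, with log2 fold changes of -0.55 (SE 0.046) and -1.51 (SE 0.049, adjusted p = 4.82e-11, edgeR). The 3 groups were separate, and Smarcb1-RE kept 35.1% of the control level. Nop14 fell by 0.46 and 0.72. Of the remaining processome genes, Utp18 fell by 0.36 and 0.76, the GTPase Bms1 by 0.45 and 0.84, and the RNA helicase Ddx10 was at -0.06 in SAHA, not called, and fell by 0.78 in Smarcb1-RE.

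Factors for export and final maturation of the small subunit were the group with the member that went against the rest in the direct comparison. Nob1, the endonuclease that makes the last cut of the small subunit rRNA, had 103, 94.5 and 92.9 CPM in control, 59.5, 54.0 and 53.1 under SAHA and 76.2, 76.1 and 78.6 in Smarcb1-RE. SAHA libraries were lowest and Smarcb1-RE libraries lay between SAHA and control. The log2 fold change was -0.80 (SE 0.054, adjusted p = 6.05e-08, edgeR) in SAHA and -0.33 (SE 0.052, adjusted p = 8.10e-05) in Smarcb1-RE, and Nob1 was the member called higher in Smarcb1-RE than in SAHA (0.47, SE 0.054, adjusted p = 4.47e-06).

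Tsr1, a late assembly factor of the small subunit, showed the reverse order. It had 173, 186 and 179 CPM in control, 184, 176 and 181 under SAHA and 114, 116 and 113 in Smarcb1-RE, so SAHA and control overlapped and Smarcb1-RE was lower than both. Its difference was 0.00 in SAHA (95% interval from -0.08 to 0.09) and -0.65 in Smarcb1-RE (SE 0.040, adjusted p = 9.92e-09, edgeR). Rrp12, which takes part in nuclear export of the subunits, fell by 0.44 and 1.27, and Ltv1, which is released from the particle late, by 0.31 and 0.70.

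All 9 large subunit assembly genes fell in both treatments, with median log2 fold changes of -0.39 in SAHA and -1.03 in Smarcb1-RE. The trio Pes1, Bop1 and Wdr12, which act as 1 complex in large subunit rRNA processing, fell by 0.30, 0.57 and 0.32 in SAHA and by 1.03, 1.24 and 0.60 in Smarcb1-RE. Rrs1, which helps to load ribosomal proteins and a small rRNA into the particle, had 105, 103 and 102 CPM in control, 75.9, 69.3 and 65.9 under SAHA and 37.5, 36.7 and 38.2 in Smarcb1-RE. The groups were separate, at -0.56 (SE 0.050, adjusted p = 8.07e-07, edgeR) and -1.46 (SE 0.053, adjusted p = 1.05e-10).

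Nop16 was measured at 87.5, 79.3 and 79.3 CPM in control, 54.8, 48.3 and 50.2 under SAHA and 33.8, 35.9 and 31.8 in Smarcb1-RE, and its groups did not overlap (-0.68 and -1.28, edgeR adjusted p = 6.78e-07 and 1.39e-09). Noc2l, the most abundant of these genes per kilobase (128 CPM per kb) and also known as an inhibitor of histone acetyltransferases, had 438, 424 and 424 CPM in control, 343, 317 and 320 under SAHA and 318, 309 and 310 in Smarcb1-RE. The 2 treatments overlapped, with a direct difference of -0.07 (95% interval from -0.15 to 0.02), and both were below control (-0.39 and -0.46). Its partner Noc3l fell by 0.62 and 0.76. Nop2, an rRNA methyltransferase, fell by 0.35 and 1.19, and Nip7 by 0.38 and 0.90.

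The multifunctional nucleolar proteins contained the most abundant members. Npm1 (nucleophosmin), a histone and ribosome chaperone of the outer nucleolus, had the highest level of all members per kilobase, 964 CPM per kb, with 2084, 1794 and 1706 CPM in control, 1669, 1584 and 1600 under SAHA and 1264, 1211 and 1258 in Smarcb1-RE. The 3 groups were separate, although control replicate 1 was well above the other control libraries. Its fall was the smallest called one in SAHA (-0.20, SE 0.062, adjusted p = 0.0117, edgeR). Without control replicate 1 it was -0.12 (still called), and with upper-quartile factors it was not called (-0.12, adjusted p = 0.0935). In Smarcb1-RE it was -0.58 (SE 0.062, adjusted p = 2.16e-06). Ncl (nucleolin), a histone chaperone and rRNA-binding protein, had a control mean of 2873 ± 94.6 CPM (SD, n = 3), a SAHA mean of 2105 ± 131 and a mean of 1505 after re-expression (2919, 2936 and 2764 in control, 2255, 2023 and 2036 under SAHA and 1505, 1481 and 1529 in Smarcb1-RE). The groups were separate. These are falls of 0.45 and 0.93 on the log2 scale.

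Mybbp1a, a nucleolar protein that binds transcription factors and takes part in rRNA processing, had the largest direct difference between the treatments. It was measured at 614, 649 and 632 CPM in control, 551, 483 and 510 under SAHA and 250, 247 and 253 in Smarcb1-RE. SAHA was slightly and Smarcb1-RE strongly below control, at 81.5% and 39.6%, and the direct difference was -1.04 (SE 0.049, adjusted p = 1.05e-09, edgeR). Gnl3 (nucleostemin), a GTPase of proliferating cells, fell by 0.25 and 0.37. Ddx21, an RNA helicase that works with both Pol I and Pol II, was not called in SAHA (0.02, 95% interval from -0.08 to 0.12) and fell by 0.45 in Smarcb1-RE.

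**Figure D3:**
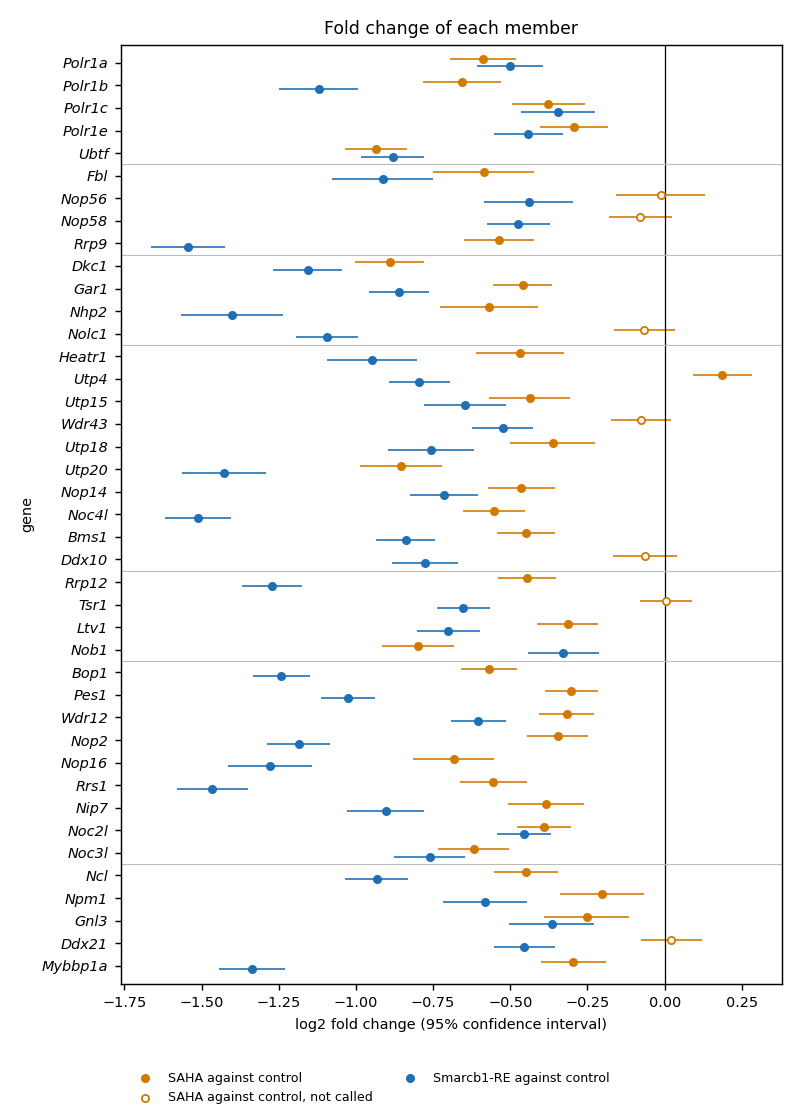
Points are log2 fold changes against control for the 41 members in SAHA and in Smarcb1-RE, and bars are 95% intervals from the edgeR fit. Open circles mark values not called, the SAHA values lie between -0.94 and 0.19 and every Smarcb1-RE value lies below 0, and Nob1 lies lower in SAHA than in Smarcb1-RE.

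In the direct comparison, 35 of the 41 members were lower in Smarcb1-RE than in SAHA, 1 (Nob1) was higher and 5 did not pass the threshold (edgeR), against 36.8% lower and 37.7% higher among all tested genes. The 5 were Polr1a, Polr1c, Ubtf, Noc2l and Gnl3. The median difference was -0.45 over the members and 0.02 over all tested genes. Rrp9, Nolc1 and Mybbp1a were the 3 members with a difference of -1 or lower, which 8.21% of all tested genes reached. Library totals in place of TMM factors left 29 members lower and 5 higher in this comparison, and the median over all genes was then 0.18. The call of Noc3l (-0.14, adjusted p = 0.0313) was lost without SAHA replicate 1 or 3 and without Smarcb1-RE replicate 2 or 3, with values from -0.15 to -0.11.

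The fold changes of the members were not ordered by transcript length, with a Spearman correlation across the 41 genes of -0.00 in SAHA and -0.03 in Smarcb1-RE, and 0.29 and 0.18 with the mean level. Over 13639 genes the correlation with the mean level was -0.24 in SAHA and -0.40 in Smarcb1-RE, so more abundant genes tended to be lower. These are correlations across genes that share the same libraries and are given as a description. The deviation of control replicate 1 from the other control libraries did follow length, with a correlation of -0.73 over the members and -0.44 over 13639 genes, so short transcripts were higher in that library. Without it, the calls were 33 lower and 1 higher in SAHA and 41 lower in Smarcb1-RE, with medians of -0.44 and -0.83.

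Members ranked high among all tested genes, with a median percentile of 88.4 for the mean level and a lowest value of 59.6. The shares of all tested genes given beside the member counts were not matched for level. A further feature outside the list's definition was that 7 of the 41 members (17.1%) hold annotated snoRNA genes within their bodies, 21 in all, compared with 204 of 12471 tested protein-coding genes (1.64%). These hosts, named after their values were seen, were Nop56, Nop58, Dkc1, Wdr43, Tsr1, Ncl and Gnl3. In SAHA, 4 of the 7 (Nop56, Nop58, Wdr43 and Tsr1) were not called, compared with 33.1% of all tested genes, and all 7 fell in Smarcb1-RE. Without control replicate 3, Nop58 (-0.12, adjusted p = 0.0305, edgeR) and Wdr43 (-0.11, adjusted p = 0.0438) were called lower in SAHA.

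Beyond the 41 members, 133 further genes of the pathway were examined, of which all but Exosc6 were tested. In SAHA, 104 of the 132 tested were lower and 10 higher than in control, with a median log2 fold change of -0.34. In Smarcb1-RE, 118 were lower and 5 higher, with a median of -0.79 (edgeR). By step, the numbers lower in Smarcb1-RE were 8 of 10 for Pol I transcription, 9 of 10 for snoRNP assembly, 37 of 38 for the small subunit, 43 of 51 for the large subunit and 21 of 23 for rRNA cleavage and the exosome. In the same order, the numbers lower in SAHA were 6, 8, 30, 42 and 18. The 5 that rose in Smarcb1-RE were all large subunit factors. The count of 5 was 10 with library totals, 11 with upper-quartile factors and 9 without control replicate 1.

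The deepest falls in SAHA were those of Rrp15 (-1.19), Ruvbl1 (-1.10), an ATPase that helps to assemble snoRNPs, and Rpp38 (-0.98), a protein of the enzymes that cut tRNA and rRNA precursors. The largest rises there were those of Utp14a (0.57), Riok2 (0.40), a kinase of the late small subunit, and Nop10 (0.39), a core protein of box H/ACA snoRNPs. In Smarcb1-RE, the Pol I subunit gene Polr1g went from 48.9 ± 8.13 to 12.6 ± 0.609 CPM (SD, n = 3), a log2 fold change of -1.95 (SE 0.10), followed by Pno1 (-1.72), a small subunit factor, and Grwd1 (-1.58), a histone-binding large subunit factor. Mdn1, the giant ATPase that strips factors from the large subunit precursor, went against the group, from 267 ± 27.3 to 474 ± 11.9 CPM (0.83, SE 0.079), with Nsa2 (0.32) and Tex10 (0.20) also higher.

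The structural proteins of the cytoplasmic ribosome had medians near 0 beside those of their assembly factors. Of the 82 tested cytoplasmic ribosomal protein genes, 13 were higher and 14 lower in SAHA, and 11 higher and 29 lower in Smarcb1-RE, with medians of -0.04 and -0.08 (edgeR). The balance depended on the scaling in both comparisons. In Smarcb1-RE, library totals gave 29 higher and 11 lower with a median of 0.08, and upper-quartile factors 31 higher and 11 lower. In SAHA, upper-quartile factors gave 24 higher and 6 lower with a median of 0.04. Their summed level in Smarcb1-RE was 96.2% of control with TMM factors and 107% as a share of all counts. Control replicate 1 was the highest control library for this list, with 5.97% of its counts against 5.18% and 5.10%. Many of these genes have near-identical copies in the genome, so their values are uncertain.

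Genes of the mitochondrial ribosome, which is assembled apart from the nucleolus, were mostly lower in both treatments. Of 78 tested, 53 were lower and 7 higher in SAHA (median -0.38), and 70 lower and 2 higher in Smarcb1-RE (median -0.73, edgeR). Their summed level was 85.3% and 61.9% of control. Transcripts of the mitochondrial genome itself summed to 112% and 137% of control, or 112% and 153% as a share of all counts, and in SAHA this share (3.37% to 3.76%) overlapped control (3.02% to 3.53%). These lists are described by counts and medians, and the difference between lists was not tested.

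**Figure D4:**
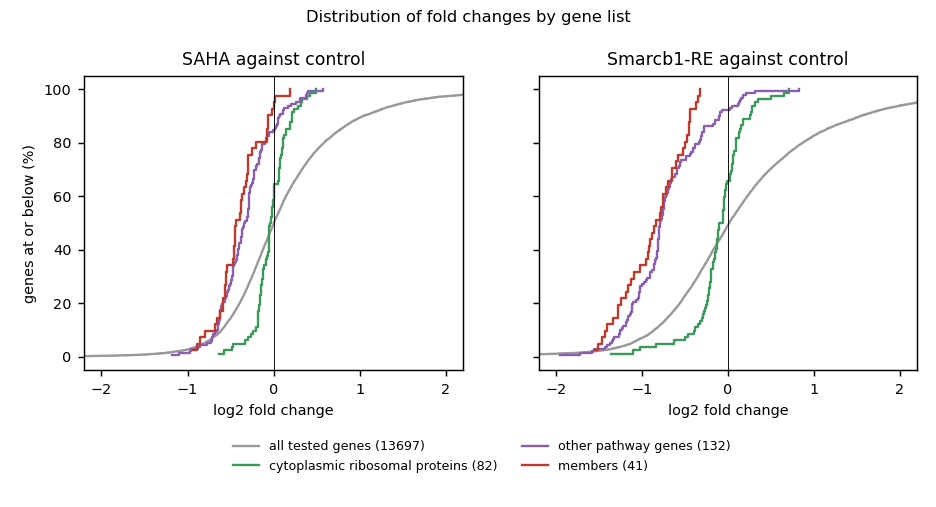
Curves give the cumulative percentage of genes (y) at or below a log2 fold change against control (x) for all tested genes, members, other pathway genes and cytoplasmic ribosomal protein genes. The members' curve lies to the left of 0 throughout in Smarcb1-RE, and the ribosomal protein curve crosses 50% at -0.04 in SAHA and -0.08 in Smarcb1-RE.

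A change of scaling factors shifts the fold changes of all genes by nearly the same amount. The position of the members relative to all genes is therefore kept by construction. With library totals the median over all genes in Smarcb1-RE rose from 0.01 to 0.17 and with upper-quartile factors to 0.19, and the members' median minus that of all genes was -0.85 under each of the 3. All 41 members were called lower in Smarcb1-RE under every scaling and with each of the 9 libraries left out in turn. In SAHA, the members' median minus that of all genes was -0.44 under each of the 3, with 32 or 33 members called lower and Utp4 called higher.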

How the data were processed

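RNA was isolated from T15 cell pellets and sequenced as single-end reads on a NextSeq 500 from libraries made with the NEBNext Ultra II Directional kit. The authors deposited 1 table of estimated counts per Ensembl gene for all libraries, neither normalized nor pooled, with 52.4% of the nonzero values not whole. The submitters' processing notes name Salmon 0.14.1, DESeq2 1.22.2, FastQC 0.11.8, MultiQC 1.7 and the build GRCm38, without their order. How Salmon divided reads among similar genes, and whether strand was used, is not given in the sources used here. Of 35288 identifiers, 99.5% were found in GENCODE M21 (GRCm38), which gave names, positions and exon lengths. The length of a gene was that of its longest principal transcript, and this makes the level per kilobase of Ncl (8202 bases) and Wdr12 (10012 bases) low.

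Counts were rounded and analysed in R 4.3.3 with edgeR 4.0.16 (TMM factors, filterByExpr at 10 counts, glmQLFit and glmQLFTest on 3 groups in 1 fit, Benjamini-Hochberg adjustment over 13697 genes, adjusted p under 0.05). The common biological coefficient of variation was 5.24%. A gene with 3 counts corresponds to 0.123 to 0.133 CPM, and this floor covers counting error only. The study states biological replicates. Members and lists were chosen with earlier results of these data known. Values per library were given for the most abundant member of each role (CPM per kb), for up to 5 called members with the largest rise and 5 with the largest fall in each comparison with control, for up to 3 in each direction in the direct comparison, and for members called in opposite directions. Among further pathway genes, the 3 largest rises and falls per comparison with control were named. The host genes of snoRNAs and the untested Exosc6 were named after their values were seen.

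Alternatives were DESeq2 1.42.0, RLE and upper-quartile factors, library totals, no count filter, at least 10 counts in every library, fits to the 2 groups compared, a replicate block, an adjusted p under 0.01, minimum absolute log2 fold changes of 0.5 and 1, and leaving out each of the 9 libraries. The code was tested on simulated counts.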

Additional observations from a re-analysis of the deposited data

How the results depend on the processing

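All 41 members kept a called fall in Smarcb1-RE against control under each alternative for scaling, filtering, tool, samples and the adjusted p under 0.01, and single-gene calls and directions were the same in 697 of 697 combinations of member and alternative fit. For SAHA against control this was so in 679 of 697, and for Smarcb1-RE against SAHA in 667 of 697. The members' median log2 fold change was -0.36 in SAHA with upper-quartile factors. In Smarcb1-RE it was -0.68 with library totals, -0.66 with upper-quartile factors and -0.78 with at least 10 counts in every library, and in the direct comparison it was -0.29 with library totals and -0.35 with upper-quartile factors. Under these scalings the median of all genes was 0.08 in SAHA (upper-quartile), and 0.17 (library totals) and 0.19 (upper-quartile) in Smarcb1-RE, and calls that were higher in Smarcb1-RE were then 61.0% (library totals) and 62.3% (upper-quartile) of all calls in place of 50.4%.

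Minimum fold changes lowered the counts by construction. At an absolute log2 fold change of at least 1, members called were 0 higher and 0 lower in SAHA, 14 lower in Smarcb1-RE, and 0 higher and 3 lower in the direct comparison. At 0.5 they were 0 higher and 14 lower in SAHA and 0 higher and 16 lower in the direct comparison. Among all genes, the threshold of 1 left 1349 higher and 322 lower in SAHA, 2309 and 928 in Smarcb1-RE and 1582 and 1124 in the direct comparison, and 0.5 left 2679 and 1784 in SAHA, 2967 lower in Smarcb1-RE and 3304 and 2897 in the direct comparison. Among further pathway genes, 1 left 0 higher and 2 lower in SAHA, 0 and 36 in Smarcb1-RE and 1 and 8 in the direct comparison, and 0.5 left 1 and 36 in SAHA, 1 higher in Smarcb1-RE and 3 and 58 in the direct comparison.

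Members called higher in Smarcb1-RE than in SAHA numbered 5 with library totals, 4 with upper-quartile factors and 2 in the fit to the 2 groups alone. Further pathway genes called higher numbered 18 in SAHA with upper-quartile factors, 10 and 11 in Smarcb1-RE with library totals and upper-quartile factors, and 24 and 18 in the direct comparison. With each library left out in turn, those called higher in Smarcb1-RE ranged from 4 to 9, and the highest count was the one without control replicate 1.

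With each library left out in turn, members called lower in SAHA ranged from 33 to 36. Calls were gained for Nop58, Wdr43 and Ddx10 without control replicate 3 (-0.12, -0.11 and -0.11) and for Nolc1 without SAHA replicate 1 (-0.11). In the direct comparison, Fbl, Dkc1, Utp15 and Nop14 were not called with library totals (-0.17, -0.11, -0.05 and -0.09). Signs turned only for members with small differences, the largest being that of Polr1e in the direct comparison (-0.15). In SAHA, upper-quartile factors gave 0.065 for Nop56, 0.012 for Nolc1, 0.0018 for Wdr43 and 0.015 for Ddx10, Nop56 was at 0.021 with at least 10 counts in every library, and Tsr1 was at -0.015 without a count filter. In the direct comparison, library totals gave 0.0098 for Polr1e, 0.093 for Noc2l, 0.016 for Noc3l and 0.046 for Gnl3, and upper-quartile factors 0.035 for Noc2l. Of these, Polr1e and Noc3l were called lower in the main fit, and Noc2l was called higher with library totals (adjusted p = 0.0474, edgeR). With a library left out, Nop56 ranged from -0.099 to 0.048, Tsr1 from -0.022 to 0.029 and Ddx21 from -0.019 to 0.062 in SAHA, and Polr1c from -0.011 to 0.079 in the direct comparison.

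Same-numbered libraries of different groups did not deviate together. Their correlations across genes ranged from -0.07 to 0.04 (mean -0.003), against a mean of 0.002 for different numbers. No shared effect of the numbers was seen, which does not settle whether samples were handled as pairs. With the replicate number as a block, members called were 33 lower and 1 higher in SAHA, 41 lower in Smarcb1-RE, and 35 lower and 1 higher in the direct comparison. Depth did not limit the members, since each had at least 705 counts in every library.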
